A study of Mus musculus with 8 samples.

Results

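The expression of 10 genes of iron handling and metal binding was followed in mouse liver: Hamp, Hamp2, Slc40a1, Hfe, Tfrc, Trf, Cp, Fth1, Mt1 and Mt2. They were taken as all probes that carry one of these symbols, with older symbols resolved through Entrez IDs, which gave 19 of the 56605 probes on the array and 10 of its 26866 named genes. All arrays held RNA from whole liver of NFS/sld mice, all female. Early loss of the thymus gives this strain an autoimmune gland disease that serves as a model of primary Sjögren's syndrome. The Tx group (4 arrays) came from mice that lost the thymus on day 3 after birth, with liver taken 8 weeks after surgery. The nonTx group (4 arrays) came from mice of the same strain and sex that kept the thymus, and neither their age nor a sham operation is given in the sources used here. Replicates are described as independent, with no animal named for each, so the p-values rest on the spread of these samples, which may be technical.

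Liver cells secrete hepcidin, the product of Hamp, into the blood. Hepcidin binds ferroportin, the iron exporter encoded by Slc40a1, and causes its breakdown, so that iron is held back in macrophages, gut cells and hepatocytes. The Hamp gene is switched on by iron through bone morphogenetic proteins (BMPs) and SMAD factors and by inflammation through interleukin 6 and STAT3. Metallothioneins, the products of Mt1 and Mt2, are small cysteine-rich proteins that bind zinc, copper and cadmium, and their genes respond to metals through the factor MTF-1 and to glucocorticoids and inflammatory cytokines.

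None of the 10 genes passed the test of a difference between the groups, made with limma on log2 signals and Benjamini-Hochberg adjustment. Of the 19 probes, all were tested, 0 had an adjusted p under 0.05 and 0 an unadjusted p under 0.05. Over all 30955 tested probes 0% passed after adjustment, where the smallest adjusted p was 0.0749, and 12.8% had an unadjusted p under 0.05. With each gene represented by its brightest tested probe, 5 of the 10 were higher and 5 lower in Tx, beside 51.5% higher and 48.5% lower among the 16495 tested genes. The log2 difference had a median of 0.03 over the 10 and 0.01 over all. Their median absolute difference was 0.19, beside 0.14 over all genes. The largest differences lay in Mt1 and Mt2, higher in Tx with log2 differences of 1.12 and 1.095, and in Hamp, lower with -0.82. These 3 were the ones at least 1.5-fold apart, a distance reached by 6.61% of all tested genes. Tx and nonTx arrays overlapped for each of the 10 genes, while 7.62% of tested genes had groups that did not overlap.

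**Figure D1:**
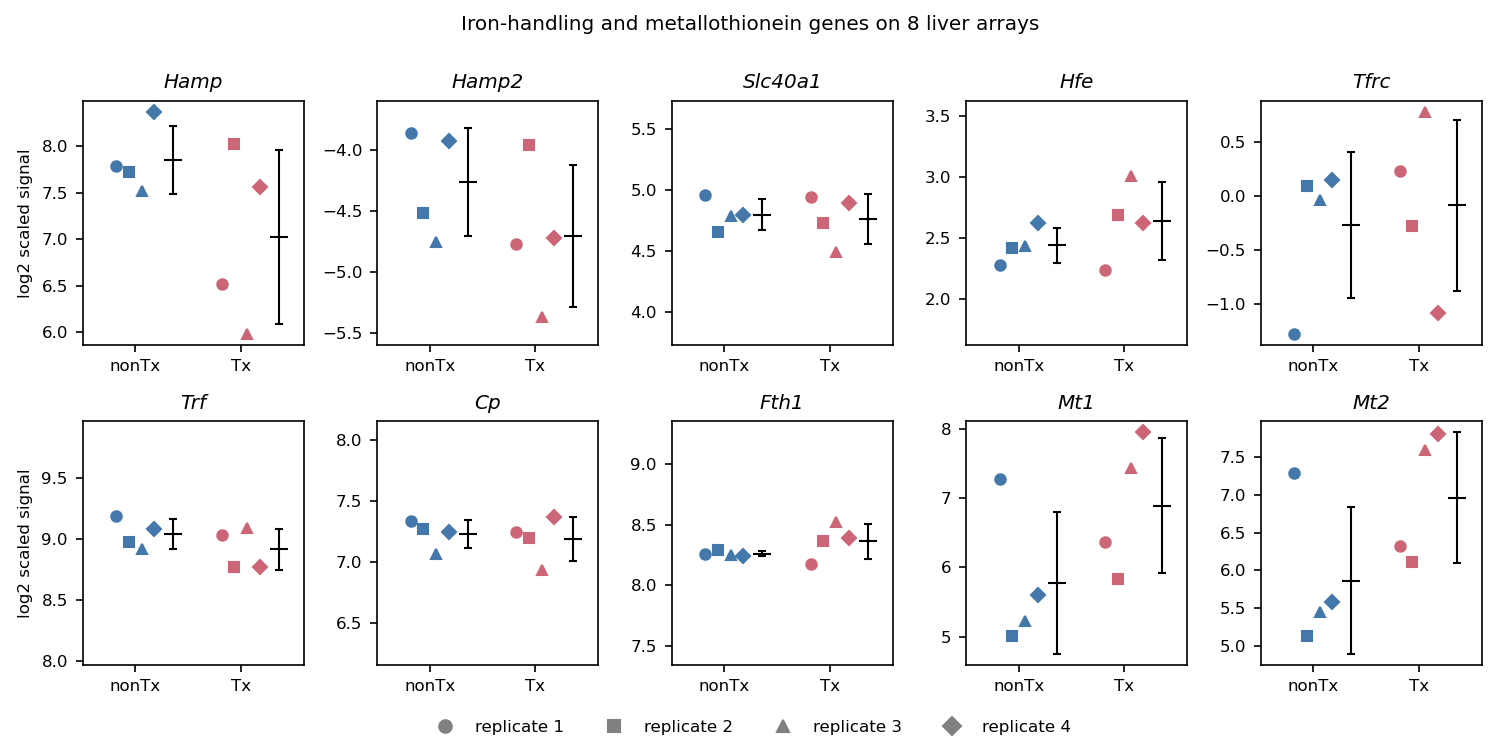
Log2 signal minus the array's 75th percentile (vertical axis, each panel its own range) for the 10 genes on the 4 nonTx (blue) and 4 Tx (red) arrays. Symbol shapes mark replicate numbers, and black bars show the group mean ± SD. The groups overlap in every panel, and the spread within groups is wide for Hamp, Tfrc, Mt1 and Mt2 and narrow for Trf, Cp and Fth1.

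Intensities below are background-subtracted scanner signals before scaling. Differences, their standard errors and the comparison of groups are on the scaled log2 signal, the log2 intensity minus the 75th percentile of the array's gene spots, which ran from 338 to 484. Levels of different probes are not compared, since probes bind with different strength. The arrays resembled each other, with correlations from 0.977 to 0.994 between pairs and 51.1% to 57.1% of probes well above background. All 8 lay on 1 slide, the nonTx arrays in its row 1 and the Tx arrays in its row 2, so slide row and group cannot be told apart. The 10 hepatocyte markers were all bright enough to be tested, with summed scaled signals of 2983 to 3313 in nonTx and 2756 to 3311 in Tx. Marker lists, their sums and their medians for other cells were as follows. Kupffer cell markers, 10 of 10 tested, summed to 107.2 to 131.8 in nonTx and 97.9 to 145 in Tx (median log2 difference 0.05). Sinusoidal endothelial markers, 10 of 10, summed to 91.3 to 95.6 and 89.2 to 103 (-0.13). T cell markers, 9 of 9, summed to 18.0 to 19.7 and 18.3 to 27.0, with a median of -0.48, and the sum follows mainly Cd4 (log2 difference 0.30), while Cd3d, Cd3g, Cd5 and Cd28 were lower without overlap. Plasma and B cell markers, 6 of 7, summed to 83.7 to 90.9 and 78.5 to 88.5 (0.25), a sum that follows mainly Xbp1 (-0.11), while Jchain (1.33) and Mzb1 (0.50) were higher without overlap. None of these genes passed after adjustment, and they were named after their values were seen. Neutrophil markers, 7 of 9, summed to 4.71 to 5.86 in nonTx and 5.87 to 9.49 in Tx (0.40). Exocrine pancreas markers, 5 of 13, summed to 27.0 to 42.0 and 41.2 to 63.7 (0.32). The pancreas sum follows mainly Cela1 (0.58). Cela2a (0.35), Ctrb1 (0.32) and Amy2a5 (0.27) were higher too, and Cel (-0.15) was lower. Prss1, Prss2 and Pnlip were among those too dim to be tested. Adipocyte markers, 2 of 6, summed to 2.60 to 3.29 and 3.44 to 3.86 (0.29). The sums did not overlap between the groups for neutrophil markers, narrowly at 5.86 against 5.87, and for adipocyte markers. The neutrophil sum follows mainly S100a9 (0.63). Retnlg (0.88), S100a8 (0.53) and Elane (0.40) were higher too, while Camp (0.02), Mpo (-0.003) and Mmp8 (-0.11) differed little. The 2 adipocyte markers tested were Fabp4 (0.45) and Lep (0.14). None of these genes passed after adjustment by limma either. The part of these other cells in the results was not tested. In whole tissue, fewer cells of a type and less RNA per cell cannot be told apart.

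The regulatory hormone comes first. Hamp gave intensities of 96703, 84586, 77278 and 131831 on nonTx replicates 1 to 4 and of 44278, 95631, 21728 and 63963 on Tx replicates 1 to 4. After scaling, Tx replicates 1 and 3 lay below every nonTx array, whereas Tx replicate 2 lay above 3 of the 4. The scaled log2 difference was -0.82 ± 0.40 (SE, 95% interval -1.71 to 0.06), 1.77-fold lower in Tx, with an adjusted p of 0.408 by limma and p = 0.229 by a two-sided exact permutation test over arrays, whose smallest possible value here is 0.0286. Without Tx replicate 3, the lowest array, the difference was -0.48, and without Tx replicate 2, the highest Tx array, it was -1.16 (adjusted p = 0.175). The Tx arrays spread more widely than the nonTx arrays, with standard deviations of 0.93 and 0.37 on the log2 scale. These spreads exceeded those of 96.5% and 89.2% of tested genes in the same group.

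Hamp2 encodes a close relative of hepcidin whose role in iron handling is less clear. Its probe was dim, at 30.4, 17.6, 15.7 and 26.4 on the nonTx arrays and 17.7, 23.8, 8.28 and 12.8 on the Tx arrays. It was well above background on 4 nonTx arrays but on 2 of the 4 Tx arrays. Hamp2 was thus tested only through its nonTx signal, which favours a lower value in Tx. The lowest array was again Tx replicate 3 and the highest Tx array again replicate 2. The scaled log2 difference was -0.44 ± 0.34 (adjusted p = 0.563 by limma). It was -0.03 with normexp background correction, and ran from -0.69 without Tx replicate 2 to -0.22 without Tx replicate 3.

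Hamp and Hamp2 signals varied together from array to array. Over the 8 arrays Pearson's r was 0.860 (p = 0.00067, adjusted p = 0.00201 over 6 pairs of genes, two-sided exact permutation test) and Spearman's rho was 0.929 (exact p = 0.00223). Without the 2 arrays farthest from the Hamp median, Tx replicates 1 and 3, r was 0.783, and for deviations from the group means it was 0.823. The 2 genes are near copies, so cross-binding of transcripts to both probes cannot be told apart from joint levels in these data. Hamp2 was well above background on 2 of the 4 Tx arrays, and these relations also use its Tx values below that level.

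The stretches upstream of both hepcidin genes are shown to compare the letters known as binding sites of the 2 routes that control Hamp. They come from RefSeq's annotation of GRCm38.p6, on the minus strand, as the 250 bases before the annotated start, and capitals mark matches to a STAT site (TTCNNNGAA) and to the core of a BMP response element (GGCGCC).
Hamp, chr7:30944030-30944279: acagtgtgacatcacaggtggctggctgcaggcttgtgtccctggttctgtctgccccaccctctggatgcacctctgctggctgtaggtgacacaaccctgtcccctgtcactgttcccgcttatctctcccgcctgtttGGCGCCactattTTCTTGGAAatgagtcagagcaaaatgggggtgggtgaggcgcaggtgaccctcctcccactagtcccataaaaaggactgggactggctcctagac
Hamp2, chr7:30924182-30924431: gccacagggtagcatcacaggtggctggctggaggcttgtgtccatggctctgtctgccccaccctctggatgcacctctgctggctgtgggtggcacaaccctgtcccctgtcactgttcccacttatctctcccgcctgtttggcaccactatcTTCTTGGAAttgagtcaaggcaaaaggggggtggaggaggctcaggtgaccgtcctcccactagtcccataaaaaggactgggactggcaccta
The Hamp stretch held the BMP core 109 bases and the STAT site 97 bases before the start. The Hamp2 stretch held the same STAT letters, TTCTTGGAA, 94 bases before its start, while its BMP core carried the substitution G4A, counted from the first base of the core in Hamp. The pair matched at 227 of 247 aligned bases, or 91.9%. Both strands were searched in 32851 promoter windows of 300 bases, of which 8.3% held the STAT letters and 11.9% the BMP core. A match is a description of letters, not of a bound site.

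Genes of the BMP and SMAD route were described from a list of 24, of which 23 were tested. In Tx 8 were higher and 15 lower (median -0.11), and 0 passed after adjustment by limma. An unadjusted p under 0.05 was reached by 4 genes, all lower, and by 0 that were higher, where 6.37% of all tested genes were lower and 6.72% higher at that level. Smad6, an inhibitory SMAD that is itself a target of the route, had scaled log2 signals of -1.06, -0.95, -0.78 and -0.92 on the nonTx arrays and -1.54, -1.26, -1.26 and -1.32 on the Tx arrays. Every Tx array lay below every nonTx array, as for 3.6% of all tested genes (4.03% lay wholly higher), and the difference was -0.41 ± 0.11 (adjusted p = 0.293).

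Atoh8, a transcription factor gene that responds to the same route, stood at -0.64, -0.52, -0.56 and -0.06 on nonTx and between -1.83 and -0.69 on the 4 Tx arrays. These groups did not overlap either, with a difference of -0.80 ± 0.24 (adjusted p = 0.306), and Tx replicates 1 and 3 were the lowest arrays, as for Hamp. Id4, of the family of inhibitors of DNA binding, differed by -0.56 ± 0.18 (adjusted p = 0.312), with Tx replicate 2 within reach of the nonTx arrays at -2.44 and the other Tx arrays between -3.21 and -3.11. Without Tx replicate 2, its highest Tx array, Id4 passed the limma test, at -0.74 with an adjusted p of 0.0461. In that fit 196 probes of the whole array passed, beside 0 with all arrays. Smad7, the other inhibitory SMAD, differed by -0.43 ± 0.18 (adjusted p = 0.369), and Id1, a widely used readout of BMP signalling, by -0.16 ± 0.44. The ligand Bmp6 differed by -0.12 ± 0.17, the co-receptor Hjv by -0.22 ± 0.14 and the protease Tmprss6, which cuts that co-receptor, by 0.11 ± 0.09. Across the 8 arrays Hamp went with Id1 at r = 0.612 (exact p = 0.101, rho 0.5 with exact p = 0.216) and with Smad7 at r = 0.629 (exact p = 0.0952, rho 0.262 with exact p = 0.536), both at an adjusted p of 0.101. Neither relation held without Tx replicates 1 and 3, where r was -0.33 and -0.08.

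**Figure D2:**
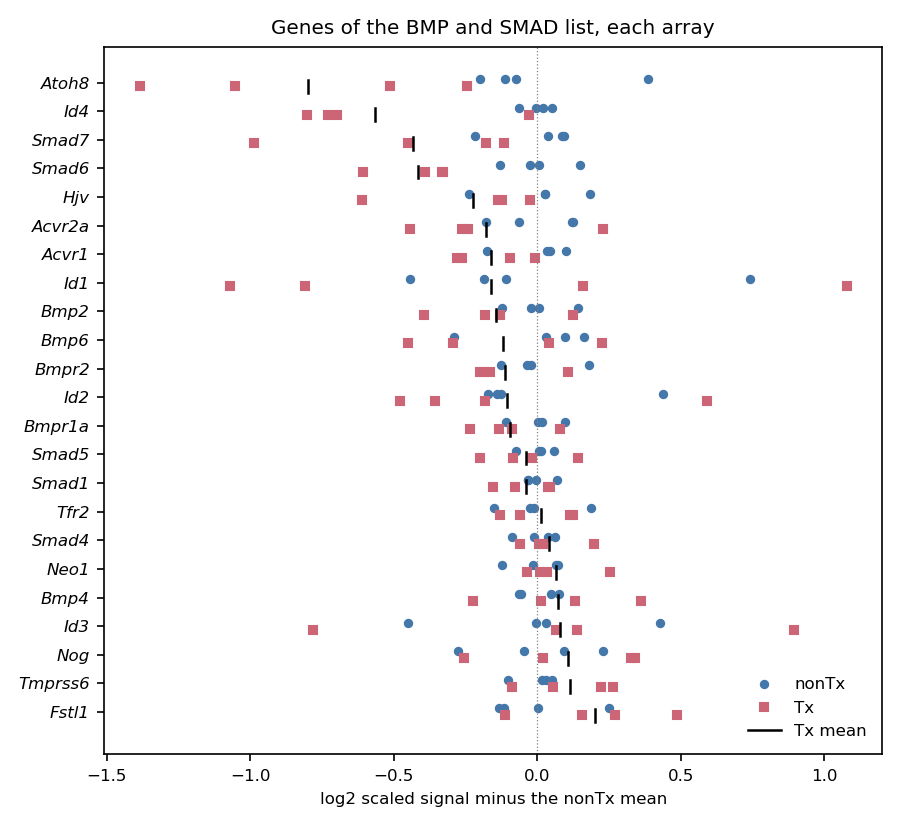
Scaled log2 signal minus the nonTx mean (horizontal axis) for the 23 tested genes of the BMP and SMAD list, ordered by difference, with nonTx arrays as blue circles, Tx arrays as red squares and the Tx mean as a black tick. The red squares lie wholly left of the blue circles for Atoh8 and Smad6, while Id1 and Id3 spread widely among the Tx arrays.

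Genes of the inflammatory route went both ways. Of 15 genes of the interleukin 6 and STAT3 list 14 were tested, 8 were higher and 6 lower, and the median difference was 0.02. An unadjusted p under 0.05 was reached by 1 gene, beside 13.1% of all tested genes. That gene was Il1b, the cytokine interleukin 1 beta, at -0.24, 0.35, 0.59 and 0.20 on the nonTx and -1.14, -0.93, -0.73 and -0.45 on the Tx arrays, without overlap (-1.04 ± 0.19, adjusted p = 0.164). Il6ra, a receptor chain for interleukin 6, differed by 0.36 ± 0.16 and the kinase gene Jak2 by -0.17 ± 0.09, the latter without overlap. Stat3 and its target Socs3 differed by 0.09 ± 0.11 and 0.05 ± 0.18. The Il6 probes were too dim to be tested. Acute phase proteins, made by hepatocytes under the same cytokines, were all tested, with 15 of 21 higher and a median of 0.10. The carrier protein gene Orm1 (0.31 ± 0.13) was the 1 at an unadjusted p under 0.05, beside 13.1% of all tested genes. Apcs, the serum amyloid P component, differed by 0.41 ± 0.20 and Orm2 by 0.26 ± 0.14. For these lists 0 genes passed after adjustment by limma.

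Ferroportin and its partners varied less than hepcidin. Slc40a1 had scaled log2 signals of 4.96, 4.65, 4.78 and 4.79 on nonTx and 4.94, 4.73, 4.49 and 4.90 on Tx arrays. The groups lay over each other, with a difference of -0.03 ± 0.11 (95% interval -0.28 to 0.22, adjusted p = 0.913). A dimmer Slc40a1 probe, designed to an Ensembl transcript, differed by 0.18 ± 0.17. The sign for the brighter probe turned under 5 of 23 alternatives, so no direction is given.

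Hfe encodes an MHC class I-like protein that acts in iron sensing ahead of hepcidin and is mutated in hereditary haemochromatosis. Its brighter probe stood at 2.28, 2.42, 2.43 and 2.62 on the nonTx arrays and 2.24, 2.69, 3.01 and 2.62 on the Tx arrays. The lowest and the highest of the 8 values both came from Tx, and the difference was 0.20 ± 0.15 (95% interval -0.13 to 0.54, adjusted p = 0.556), with 0.20 ± 0.15 for the other probe too.

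Tfrc, the receptor that brings transferrin-bound iron into cells and a transcript stabilised when cell iron is low, was uneven between arrays. Its brighter probe read 182, 425, 411 and 441 on the nonTx arrays and 567, 303, 585 and 160 on the Tx arrays. An array of each group, nonTx replicate 1 and Tx replicate 4, lay far below the rest, and the second Tfrc probe repeated this with 79.1 and 66.4 on these arrays against 151 to 201 on the other 6. The difference was 0.18 ± 0.41 (95% interval -0.74 to 1.1, adjusted p = 0.863), and -0.15 without nonTx replicate 1. Erythroid markers, 11 of 18 tested, were highest on the same 2 arrays, with median deviations from the 8-array mean of 0.32 and 0.61. Their summed signals ran from 831 to 1183 in nonTx and from 573 to 1479 in Tx (median difference -0.10). The erythroid genes Ahsp and Gata1 were among those too dim to be tested, and the part of red cell RNA in the Tfrc values was not tested. Across the 8 arrays Tfrc went against Slc40a1 at r = -0.70 (exact p = 0.0511, adjusted p = 0.0767 over 6 pairs, rho -0.48 with exact p = 0.243), and at r = -0.52 without those 2 arrays.

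Genes of transport and storage proteins varied little. Trf, the plasma iron carrier transferrin, stood at 9.19, 8.98, 8.92 and 9.09 on nonTx and 9.03, 8.77, 9.09 and 8.77 on Tx arrays. The groups overlapped, with the 2 lowest values in Tx, and a difference of -0.13 ± 0.10 (95% interval -0.36 to 0.10, adjusted p = 0.587) and -0.03 ± 0.10 on its other probe. Cp, the copper-carrying ferroxidase ceruloplasmin that oxidises iron for loading onto transferrin, had 5 probes with differences from -0.16 to 0.02. The brightest stood at 7.34, 7.27, 7.06 and 7.24 on nonTx and 7.25, 7.19, 6.93 and 7.37 on Tx arrays, and differed by -0.04 ± 0.10 (95% interval -0.28 to 0.19, adjusted p = 0.879).

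Fth1, the heavy chain of the iron store ferritin, stood at 8.26, 8.29, 8.25 and 8.24 on the nonTx arrays and 8.18, 8.36, 8.52 and 8.39 on the Tx arrays. The nonTx values were nearly level, with a standard deviation of 0.02 while the Tx values, with one of 0.14, lay on both sides of them. The difference was 0.10 ± 0.08 (95% interval -0.09 to 0.29, adjusted p = 0.598). Ferritin and Tfrc are also controlled through iron-responsive elements in their transcripts, at the level of translation and of stability, which transcript signals show only for Tfrc.

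The wider iron machinery gave no call. Of 27 genes of iron uptake, storage, export and sensing 23 were tested, 13 higher and 10 lower, with a median of 0.00 and 0 past the threshold after adjustment by limma. Cubn, an endocytic receptor, was the 1 gene with an unadjusted p under 0.05 (adjusted p = 0.388), beside 13.1% of all tested genes. It was well above background on 3 nonTx and 0 Tx arrays, so that it was tested only through its nonTx signal, which favours a lower value in Tx. With its Tx signals raised to at least the lowest signal well above background, the Tx mean lay 1.14-fold below the nonTx mean. That fold carries no error estimate, the limma difference was -0.86 ± 0.38, and the groups overlapped. Steap3, a ferrireductase of endosomes, differed by 0.22 ± 0.12 and Pcbp2, an iron chaperone, by 0.13 ± 0.09. The ferritin light chain Ftl1 differed by -0.02 ± 0.09.

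Heme and iron-sulfur genes lay mostly on one side without passing. Of 29, all tested, 23 were higher and 6 lower, with a median of 0.08, and 6 had an unadjusted p under 0.05, all higher, beside 6.72% of all genes. Hmox2, the constitutive heme oxygenase, stood at 3.22, 3.26, 3.25 and 3.25 on nonTx and 3.40, 3.56, 3.41 and 3.65 on Tx arrays, without overlap (0.26 ± 0.08, adjusted p = 0.307). Slc46a1, a folate and heme transporter, differed by 0.29 ± 0.10 and Glrx5, a glutaredoxin of iron-sulfur cluster assembly, by 0.26 ± 0.10. Over all alternatives 21 to 27 of the 29 were higher. Scaling to each array's median moved the median difference of all tested probes from -0.01 to 0.11. Copper genes, 12 of 13 tested, had 7 higher and 5 lower and a median of 0.03. The extracellular superoxide dismutase Sod3 differed by 0.21 ± 0.08. It was the 1 copper gene with an unadjusted p under 0.05, beside 13.1% of all tested genes. The cytochrome oxidase assembly gene Sco1 differed by -0.20 ± 0.10 and the copper chaperone Ccs by 0.17 ± 0.09.

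**Figure D3:**
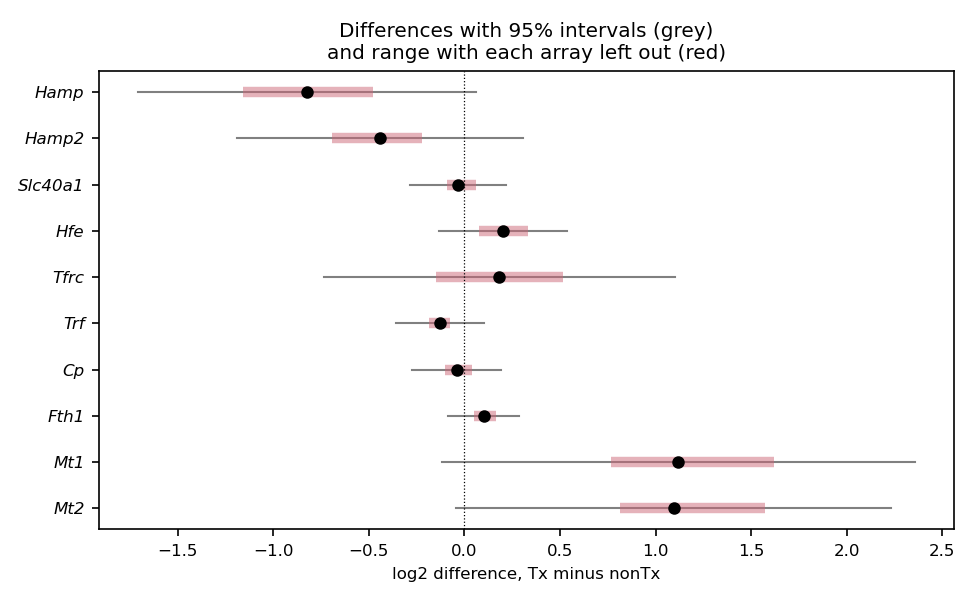
Log2 difference, Tx minus nonTx (horizontal axis), for the 10 genes, with 95% intervals from limma in grey and the range of the difference over the 8 fits that leave out 1 array in red. All intervals include 0. The ranges for Slc40a1, Tfrc and Cp include 0, whereas those for Hamp, Hamp2, Hfe, Trf, Fth1, Mt1 and Mt2 lie on one side of it.

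The metallothioneins showed the largest differences among the 10 genes, with wide spreads in both groups. Mt1, by the probe designed to its RefSeq mRNA, read 68092, 12940, 15822 and 19357 on nonTx replicates 1 to 4 and 39774, 20958, 59424 and 83938 on Tx replicates 1 to 4. The nonTx replicates 2 to 4 lay below every Tx array, but nonTx replicate 1 lay above Tx replicates 1 and 2. The scaled log2 difference was 1.12 ± 0.55 (95% interval -0.12 to 2.36), 2.17-fold higher in Tx (adjusted p = 0.417 by limma, p = 0.171 by the exact permutation test). Mt2 repeated the pattern, at 68819, 14107, 18554 and 19125 on nonTx and 38760, 25485, 66351 and 75819 on Tx arrays. It differed by 1.095 ± 0.51 (95% interval -0.04 to 2.23), 2.14-fold higher (adjusted p = 0.399, exact permutation p = 0.143).

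The spread within groups came close to the difference between them. The standard deviations of Mt1 were 1.03 in nonTx and 0.97 in Tx, above those of 99.5% and 96.9% of tested genes, and those of Mt2 were 0.97 and 0.87. Without nonTx replicate 1 the differences were 1.62 for Mt1 (adjusted p = 0.514) and 1.57 for Mt2 (adjusted p = 0.503). Without any 1 array they ran from 0.77 to 1.62 and from 0.81 to 1.57. Mt1 and Mt2 ranked the 8 arrays in the same order, with rho = 1.0 (exact permutation p = 4.96e-05) and r = 0.993 (exact permutation p = 2.48e-05, the smallest it can give, adjusted p = 0.000149 over 6 pairs). Within groups r was 0.990, and it was 0.988 without Tx replicates 3 and 4. The genes are paralogs and near neighbours on chromosome 8, and cross-binding to both probes was not tested.

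The start regions of both are shown for the metal response element, the letters bound by MTF-1, whose core was searched as TGCACNC or TGCGCNC on both strands. RefSeq's GRCm38.p6 annotation gives the plus strand, capitals mark matches to this core and, in Mt2, to an antioxidant response element core (TGACNNNGC), and the short line spans the Mt1 start.
Mt1, chr8:94178839-94179088: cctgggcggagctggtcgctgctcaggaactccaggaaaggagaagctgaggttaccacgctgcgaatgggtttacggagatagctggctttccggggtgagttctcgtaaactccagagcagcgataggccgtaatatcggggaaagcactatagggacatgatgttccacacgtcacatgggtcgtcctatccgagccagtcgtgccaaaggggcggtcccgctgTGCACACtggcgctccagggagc
Mt1 start, chr8:94179086-94179115: agctcTGCACTCcgcccgaaaagTGCGCTC
Mt2, chr8:94172368-94172617: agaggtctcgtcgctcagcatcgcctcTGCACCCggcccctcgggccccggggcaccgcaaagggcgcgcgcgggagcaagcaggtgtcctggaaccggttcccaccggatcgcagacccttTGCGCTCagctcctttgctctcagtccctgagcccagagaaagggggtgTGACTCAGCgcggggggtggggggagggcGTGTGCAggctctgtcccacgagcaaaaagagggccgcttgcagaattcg
The Mt1 window of 300 bases held 3 metal response cores and the Mt2 window 4, of which 3 lie in the stretch shown. At least 3 such cores were found in 1.97% of the 32851 windows and at least 1 in 25.7%. The antioxidant core TGACTCAGC lay 79 bases before the Mt2 start and occurs as a motif in 12.4% of windows. The E-box CACGTG, in 7.15% of windows, and the glucocorticoid receptor core TGTTCT, in 19.0%, were searched for too. Neither was among the letters of these Mt1 and Mt2 windows, which end 50 bases past the annotated start. Letters further on were not searched. Windows for 8 of the 10 genes were at hand. Among the others, the first Tfrc window held 2 overlapping metal response cores and the letters GGCGCC, the Hfe window held the antioxidant core and the glucocorticoid letters, and the Cp window held the latter, as did both hepcidin windows past the start.

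A second Mt1 probe, designed to an Ensembl transcript, went the other way. It read 2432, 343, 868 and 951 on the nonTx arrays and 351, 114, 684 and 843 on the Tx arrays. Here nonTx replicate 1 was the highest array and Tx replicate 2 the lowest, and the scaled log2 difference was -1.09 ± 0.70 (adjusted p = 0.497). With the mean of both probes in place of the brighter one, the Mt1 difference was 0.01.

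The ratio of the mRNA probe to this second probe separated the groups, a comparison chosen after the values were seen. Its log2 was 4.81, 5.24, 4.19 and 4.35 on nonTx and 6.83, 7.52, 6.44 and 6.64 on Tx arrays, without overlap. The mean difference was 2.21 ± 0.26 (SE, 95% interval 1.62 to 2.80), with an adjusted p of 0.0248 by limma over 9986 ratios of 2 probes of a gene, from 6722 genes, and an exact permutation p of 0.0286, the smallest possible. Of these ratios 0.0501%, or 5, passed the threshold, those of Lpin2, Klf12, Mt1, Etnk2 and Id2, and 6.22% had groups that did not overlap. The call did not hold without nonTx replicate 1 (adjusted p = 0.0708), nonTx replicate 3 (0.102), nonTx replicate 4 (0.0944) or Tx replicate 4 (0.0885), while the difference ran from 1.99 to 2.41 over all 8 such fits. The ratio shows that the 2 probes changed unequally, and not which of them changed. No ratio of 2 probes passed for the other 5 genes with several probes, Cp, Hfe, Slc40a1, Tfrc and Trf.

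**Figure D4:**
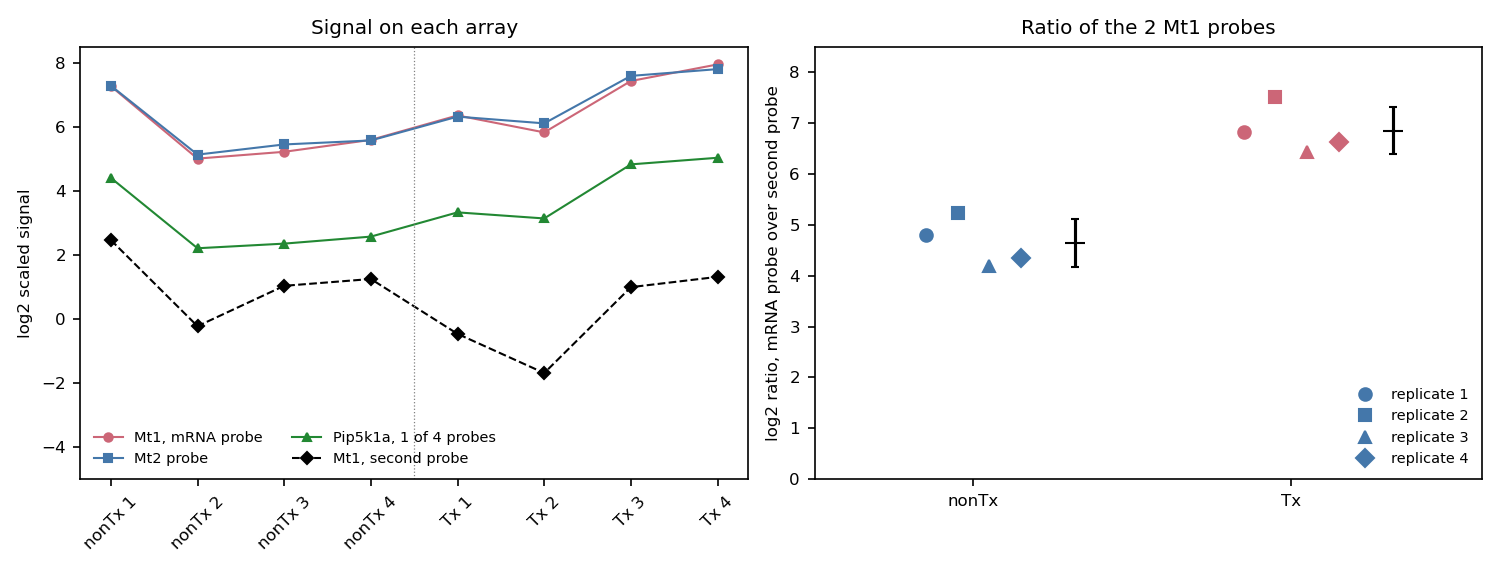
Left, scaled log2 signal (vertical axis) of the 2 Mt1 probes, the Mt2 probe and 1 of 4 Pip5k1a probes on each array, with the groups parted by a dotted line. Right, log2 ratio of the Mt1 mRNA probe to the second Mt1 probe by group, with symbols for replicates and bars for mean ± SD. The Mt1 mRNA probe, the Mt2 probe and the Pip5k1a probe share one shape, the second Mt1 probe lies lower relative to them in Tx, and the ratio lies at 4.19 to 5.24 in nonTx and 6.44 to 7.52 in Tx.

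Genes around the metallothioneins differed less. Of 21 zinc transport and MTF-1 genes 19 were tested, 10 higher and 9 lower, with a median of 0.02. The zinc importers Slc39a11, Slc39a4 and Slc39a1 differed by 0.22 ± 0.10, 0.21 ± 0.10 and 0.16 ± 0.08. Slc39a11 was the 1 gene of this list with an unadjusted p under 0.05, beside 13.1% of all tested genes. The exporter Slc30a1, a known MTF-1 target, differed by 0.06 ± 0.15 and went with Mt1 across the 8 arrays at r = 0.722 (exact p = 0.0453, adjusted p = 0.0767, rho 0.762 with exact p = 0.0368), with r = 0.514 without Tx replicates 3 and 4. Mt3, another metallothionein gene, differed by 0.17 ± 0.12.

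Glucocorticoid-induced genes, 14 of 14 tested, had 8 higher and 6 lower and a median of 0.06, with 5 at an unadjusted p under 0.05, 3 higher and 2 lower, beside 13.1% of all tested genes. Gadd45g, a stress-response gene, stood at 3.57, 4.47, 3.93 and 4.23 on nonTx and 2.91, 1.65, 1.57 and 1.72 on Tx arrays, without overlap (-2.09 ± 0.30, adjusted p = 0.0868). Fkbp5, a chaperone of the glucocorticoid receptor, was higher without overlap (0.62 ± 0.18, adjusted p = 0.295), and the phosphatase gene Dusp1 differed by -0.74 ± 0.29. These lists too had 0 genes past the threshold after adjustment by limma.

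Of 16483 genes compared, those most like Hamp in pattern over the 8 arrays were A930009L07Rik (r = 0.982), 4930442G15Rik (0.981), Khdc3 (0.974), Decr2 (0.973) and 4933432I09Rik (0.972). These are descriptions from 8 arrays, which all genes share, and 238 genes had an r of at least 0.9. On Tx replicate 3, A930009L07Rik (-6.09) and Khdc3 (-4.97) lay below the lowest scaled log2 signal well above background there, -4.72. On Tx replicate 1 A930009L07Rik did so too (-5.18 against -5.05). Their r with Hamp thus uses values below that level, on arrays where Hamp was lowest. Among the 5 closest to Mt1 were Pip5k1a (0.991), 6430550D23Rik (0.982), Eef2 (0.972) and A430005L14Rik (0.962). Among the 5 closest to Mt2 were Pip5k1a (0.998), St6galnac6 (0.972), A430005L14Rik (0.968) and 6430550D23Rik (0.964). The Pip5k1a pattern came from 1 of 4 probes of this lipid kinase gene, which read 9348, 1857, 2166 and 2383 on nonTx and 4873, 3251, 9765 and 11115 on Tx arrays. The other 3 probes, looked at after this was seen, had r with Mt2 of -0.46, -0.41 and 0.03. The last stood well above background on 0 of 8 arrays and the first on 3 nonTx and 2 Tx arrays, so only the probe at -0.41 was well measured on all 8.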

How the data were processed

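Total RNA of 8 liver samples was labelled with Cy3 and hybridised to 1-colour Agilent arrays. Intensity values were background-subtracted by the authors' scanner software, which the file headers name as Feature Extraction 10.7.1.1 and the submitters' processing notes as 9.1. A deposited table repeats these intensities and adds the authors' log2 values, used as an alternative.

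Control spots were left out and outlier spots set to missing. From log2 intensities the 75th percentile of the array's 59305 gene spots was subtracted. Probes well above background on 3 or more arrays of either group were tested. The test of Tx against nonTx used limma, version 3.58.1 under R 4.3.3 (variance trend, 4 against 4 arrays, adjusted over all 30955 probes, threshold 0.05). For single values, exact permutation tests of the groups were made in R. Correlations were computed with scipy 1.17.1, with exact permutation p-values made in Python. The script was tested on simulated data. The number of arrays limits the precision.

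The 10 genes and all gene lists were chosen with earlier results of these data known. Named were the 10 genes with all probes. From each pathway list, those past the threshold were named and, where under 3 passed, up to 3 of smallest p. For Hamp, Mt1 and Mt2 the 5 genes of highest r were taken, of which some are not reported here. The choice of other genes and of the Mt1 probe ratio followed a look at their values. The authors' deposited fold column is not quoted. Alternatives covered background correction, scaling, filters, variance models, a replicate block, probe averaging and leaving out each array.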

Additional observations from a re-analysis of the deposited data

Results flagged for a closer look

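In 4 of 40 groups of 4 arrays checked, each a probe or the Mt1 probe ratio in Tx or nonTx, 1 array stood far from the other 3, measured as its gap to the nearest array over the whole range; chance gives about 1 in 20 groups. On both Tfrc probes nonTx replicate 1 was the lowest array, with gaps of 0.870 for the brighter and 0.916 for the dimmer probe. The dimmer Hfe probe was highest on nonTx replicate 1 (0.869). The Cp probe for transcript variant 4 was highest on nonTx replicate 4 (0.879). For these last probes the range itself was small. The nonTx arrays spanned 1.09-fold on this Hfe and 1.18-fold on this Cp probe, beside 2.67-fold and 2.25-fold on the Tfrc probes.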

How the results depend on the processing

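Of 229 recalculated differences of the 10 genes, 217 kept their direction, 12 turned and 0 passed the threshold. Among those that kept it, Mt1 fell from 1.12 to 0.013 with the mean of a gene's probes. Slc40a1 turned to 0.083 with median scaling, 0.0051 with array weights, 0.074 with the mean of a gene's probes, 0.021 without nonTx replicate 1 and 0.058 without Tx replicate 3, with a range of -0.093 to 0.058 over all arrays left out. Tfrc turned to -0.098 with array weights, -0.151 without nonTx replicate 1 and -0.105 without Tx replicate 3, in a range of -0.151 to 0.513. Cp turned to 0.087 with normexp, 0.075 with median scaling, 0.00048 with array weights and 0.042 without Tx replicate 3, in a range of -0.103 to 0.042. The cause was not tested. Hamp2 gave no value under the strict filter.

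The count of probes past the threshold, 0 as reported, was 2 with normexp, 6 with median scaling, 1 without a variance trend, 5 with robust variance, 6 with array weights, and 0 to 196 with each array left out, the 196 without Tx replicate 2. With the replicate block it was 1. Deviations of same-numbered arrays correlated at 0.05, 0.08, 0.10 and -0.01, and 3 of 8 arrays correlated best with their own number. The Mt1 probe ratio stayed at 2.21 but lost its call without a variance trend (adjusted p = 0.132) and with robust variance (0.0530). Its adjusted p was 0.000172 with the block, and its range without each array was 1.99 to 2.41. A slide or scan block was not run, since all arrays share 1 slide and 1 scan.

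Of the BMP and SMAD genes 8 were higher as reported, 5 with quantile normalization, 13 with median scaling and 6 to 10 without each array. Of the 14 interleukin 6 genes 8 were higher as reported, 5 with quantile normalization and with scaling to bright probes, and 11 with median scaling. Of the iron uptake genes 20 were higher with median scaling and 7 with scaling to bright probes. Called genes went from 0 to 1 for the BMP and SMAD list (Id4, without Tx replicate 2) and for the glucocorticoid list (Gadd45g, with array weights and without Tx replicate 1 or 2). Of the latter list 5 to 9 were higher without each array. Probes near background, such as Hamp2, are limited by signal, and all probes by the number of arrays. The Mt1 difference also rests on the choice of probe, and slide row cannot be told apart from group.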

Other observations

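Per1, a clock gene in the glucocorticoid list named after its values were seen, varied widely within both groups. Its scaled log2 signals were -0.37, 1.71, 2.75 and 2.99 on nonTx replicates 1 to 4 and 3.97, 2.50, 1.29 and 0.87 on Tx replicates 1 to 4. The difference was 0.39 ± 0.81 (adjusted p = 0.850 by limma), and nonTx replicate 1 and Tx replicate 4, its lowest arrays, were the lowest for Tfrc as well. Among the acute phase genes Saa1, chosen likewise, was highest on Tx replicate 4 (7.37) and nonTx replicate 1 (5.91), the arrays on which Mt1 was highest in each group.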
